A study of Mus musculus with 6 samples.

Results

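DNA repair and damage checkpoint genes encode the proteins that find, signal and mend lesions and broken ends in DNA. The set described here holds 56 mouse genes, listed by name from homologous recombination, end resection, the Fanconi pathway, mismatch repair, base excision repair, end joining, translesion synthesis and the checkpoint kinases. Of these, 54 were measured among 19937 genes, and Xrcc2 and Rbbp8 were not measured here. H2afx was found under its present symbol, H2ax.

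The samples were 6 single-colour Affymetrix Mouse Gene ST arrays, 3 labelled EVI1 and 3 labelled EGFP, all of lineage-depleted (Lin-) C57BL6 hematopoietic cells from Rosa26rtTA mice. These mice carry the doxycycline-dependent transactivator rtTA, and both groups therefore share it. The cells labelled EVI1 received the lentiviral vector pRRL.PPT.Tet.Evi1.IRES.EGFP.pre, which carries the zinc finger transcription factor EVI1 and the fluorescent marker EGFP behind a tetracycline-responsive promoter, and the cells labelled EGFP received pRRL.PPT.Tet.EGFP.pre, with the marker alone. The serum-free medium of both groups held 4 cytokines, which were IL-3 at 20 ng/ml and SCF, Flt3 ligand and IL-11 at 50 ng/ml each. Both were transduced 24 h after isolation, given 1 µg/ml doxycycline a day later, and sorted for EGFP. RNA was taken 20 h after doxycycline in the design text and 24 h after it in the treatment label. The labels give no age, do not say whether animals were pooled, and do not say whether replicates are separate transductions, so p-values measure only the spread between these arrays. The comparison asks which transcripts differ when EVI1 is induced for about a day.

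All values are log2 intensities on the deposited scale, and differences are EVI1 minus EGFP on that scale, so -1 is a 2-fold lower intensity. A gene was said to fall or rise when its limma p, adjusted over all genes by the Benjamini-Hochberg method, was under 0.05. The transcript of the overexpressed factor did not check the labels. Mecom, the gene of EVI1, had 6.29, 6.18 and 6.49 in the EVI1 arrays, against 6.39, 7.53 and 6.86 in the EGFP arrays, a difference of -0.60 ± 0.26 (SE) that was not called (limma adjusted p = 0.166). A two-sided exact permutation test over the arrays gave p = 0.2 and cannot go below 0.1 in this design. Leaving out EGFP replicate 1 gave -0.87, which was called (limma adjusted p = 0.0306), and whether its probes read the vector's sequence is not known here. The Mecom means of 6.32 in the EVI1 and 6.92 in the EGFP arrays both lay under the level of olfactory receptor genes used below as background (6.99 and 6.95). The difference over all arrays is therefore not one between groups above background. Without EGFP replicate 1 the EGFP values were 7.53, above that level, and 6.86, under it, and every EVI1 value lay under it. Every direction below is therefore that of the labels.

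Double-strand breaks are mended either by homologous recombination, which copies the intact sister chromatid during S and G2 phase, or by end joining, which works through the whole cell cycle. The Fanconi proteins free DNA of crosslinks and hand it to recombination, mismatch repair corrects replication errors, and base excision repair removes damaged bases through single-strand breaks. The kinases ATM and ATR sense breaks and exposed single-stranded DNA and hold the cell cycle through CHEK2 and CHEK1. Hematopoietic stem and progenitor cells depend on these pathways, and inherited loss of Fanconi genes causes bone marrow failure.

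Most of the measured repair and checkpoint genes fell in the arrays labelled EVI1, and none rose. Of 54 genes 36 fell (66.7%), where 9.18% of all genes tested fell, 0 rose, where 9.06% of all genes did, and 18 were not called. The list was chosen with earlier results of these data known, so these shares are described and not tested. At an unadjusted limma p under 0.05, 2 of the genes were higher (Xrcc5 and Trp53bp1), where 14.2% of all genes were, and with a replicate block 1 of them, Xrcc5, rose. By at least 2-fold, 19 fell, where 3.03% of all genes did. The steepest falls were of the helicase gene Blm (-1.92 ± 0.16 SE), the exonuclease gene Exo1 (-1.85 ± 0.13), the BRCA1 partner Brip1 (-1.78 ± 0.11) and the checkpoint kinase gene Chek1 (-1.71 ± 0.28), with n = 3 arrays per group throughout. The median difference over the 54 genes was -0.72, beside 0.006 over all genes. In 38 of them every EVI1 value lay below every EGFP value, as in 16.5% of all genes. Averaged over the 54 genes, log2 intensity was 8.31, 8.35 and 8.16 in the EVI1 arrays, against 9.07, 8.94 and 9.01 in the EGFP arrays. EVI1 replicate 3 was the lowest, and it gave the lowest of the 3 EVI1 values for 61.1% of these genes, against 28.7% of all genes. EGFP replicate 2 gave the lowest EGFP value for 33 of the 54 genes, against 40.9% of all genes. It gave the highest EGFP value for 17, against 32.7% of all genes. The count of genes that fell was 27 without EVI1 replicate 3, and between 30 and 36 without any other single array.

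**Figure D1:**
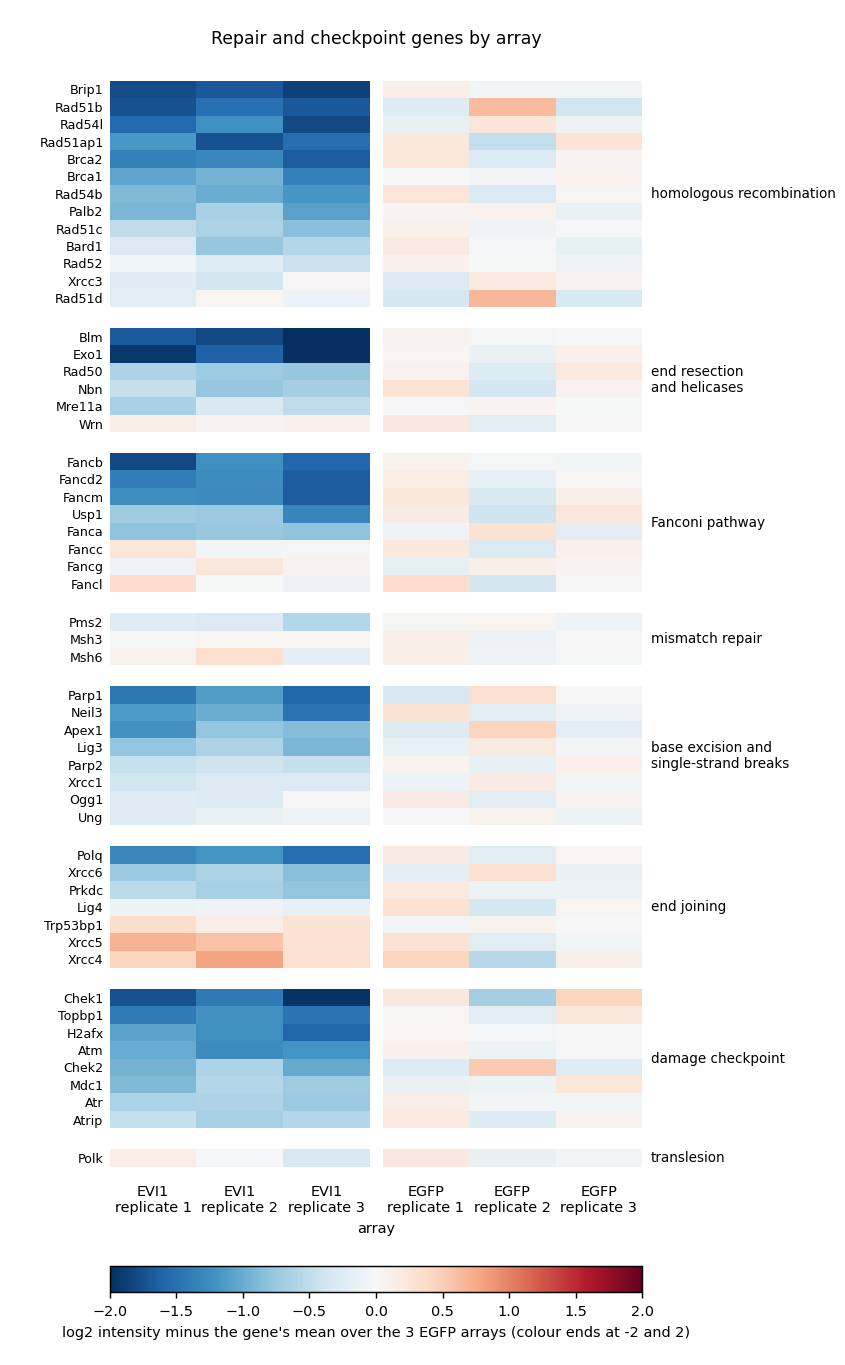
Each line is a measured gene and each column an array, EVI1 on the left and EGFP on the right, and colour gives log2 intensity minus the gene's mean over the 3 EGFP arrays. Blue in the EVI1 columns covers, among others, all 8 damage checkpoint genes, while the 3 mismatch repair genes stay pale.

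The share of genes that fell was counted by pathway, beside the 9.18% of all genes tested that fell. All 8 checkpoint genes fell, 10 of 13 homologous recombination genes, 5 of 6 resection and helicase genes, 5 of 8 Fanconi genes, 5 of 8 base excision and single-strand break genes, 3 of 7 end joining genes and none of 3 mismatch repair genes (1 with a replicate block, Pms2, which was also the 1 gene of the 3 at an unadjusted limma p under 0.05). Median differences were -1.01 for the checkpoint, -1.02 for homologous recombination, -0.68 for resection and helicases, -0.85 for the Fanconi pathway, -0.62 for base excision, -0.11 for end joining and 0.02 for mismatch repair. The end joining median was 0.04 without EGFP replicate 1 and -0.29 without EGFP replicate 2, and that of mismatch repair was -0.06 without EVI1 replicate 2 and 0.08 without EGFP replicate 1. When single arrays were left out, 6 to 8 checkpoint, 9 to 10 homologous recombination, 4 to 5 Fanconi and 2 to 3 end joining genes fell. The lists are short, and the difference between pathways was described and not tested. The 3 mismatch repair genes are too few to set none apart from the 9.18% of all genes.

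**Figure D2:**
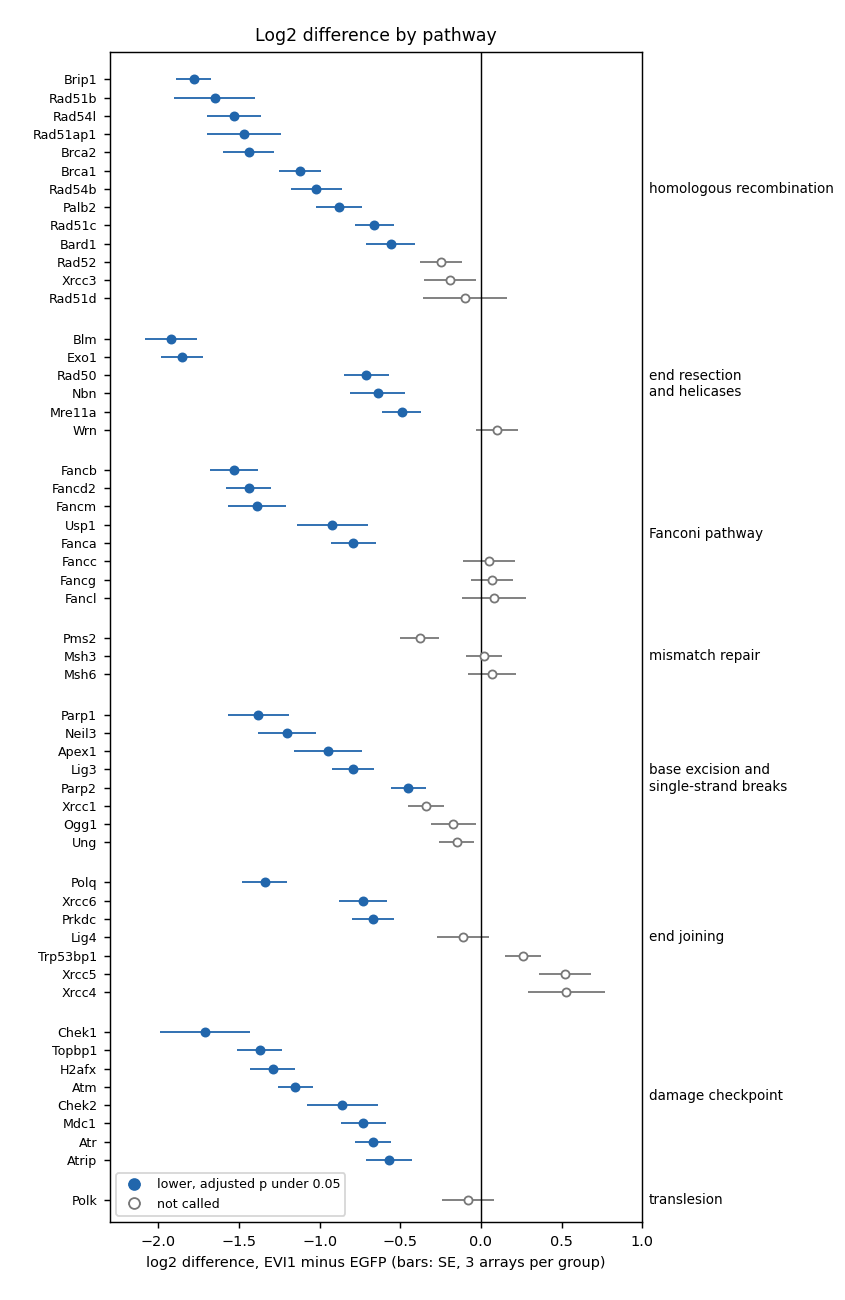
Points are log2 differences, EVI1 minus EGFP, with SE bars from limma (3 arrays per group), and filled points are genes that fell at an adjusted p under 0.05. The filled points reach from -0.45 for Parp2 to -1.92 for Blm, and the 3 points furthest to the right, Xrcc4, Xrcc5 and Trp53bp1, all belong to end joining.

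Because these genes fell together, their promoter windows were searched for letters tied to cell cycle control. The windows run from 250 bases before to 50 bases after the gene start in RefSeq (GRCm38.p6), and 44 of the 54 genes had one. The E2F letters, TTTCCCGC, TTTGGCGC or TTCCCGCC on either strand, were found for 11 of the 28 genes that fell and had a window (39.3%) and for 3 of the 16 that were not called (18.8%). They were found for 5.17% of all 15562 measured genes with a window and in 3.21% of all 32851 windows. TTTCCCGC and TTCCCGCC can overlap in a window. The letters CCAAT, bound by NF-Y, were found for 17 of the 28 (60.7%) and 7 of the 16 (43.8%), against 41.7% of measured genes and 37.4% of windows. The CHR letters, TTTGAA or TTCGAA, were found for 6 of the 28 (21.4%) and 0 of the 16, against 19% of measured genes and 19.2% of windows. A match describes the letters in a window and not binding. The windows of the 3 genes with the smallest p among those that fell and had one are shown first, with matches to any of these letters in capitals.
Brip1, chr11:86201144-86201443, minus strand: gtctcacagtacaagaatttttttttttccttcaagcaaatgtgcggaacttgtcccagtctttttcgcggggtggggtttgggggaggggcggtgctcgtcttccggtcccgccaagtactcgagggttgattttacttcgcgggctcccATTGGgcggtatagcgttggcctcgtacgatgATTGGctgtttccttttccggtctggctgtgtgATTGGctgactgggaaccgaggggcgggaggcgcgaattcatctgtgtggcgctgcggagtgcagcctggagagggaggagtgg
Blm, chr7:80534949-80535248, minus strand: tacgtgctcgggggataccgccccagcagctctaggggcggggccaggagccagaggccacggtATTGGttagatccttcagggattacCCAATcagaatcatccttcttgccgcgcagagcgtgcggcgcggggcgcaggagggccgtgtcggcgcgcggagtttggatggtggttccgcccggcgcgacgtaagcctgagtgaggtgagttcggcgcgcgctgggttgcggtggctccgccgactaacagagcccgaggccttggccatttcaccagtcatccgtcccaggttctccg
Atm, chr9:53536622-53536921, minus strand: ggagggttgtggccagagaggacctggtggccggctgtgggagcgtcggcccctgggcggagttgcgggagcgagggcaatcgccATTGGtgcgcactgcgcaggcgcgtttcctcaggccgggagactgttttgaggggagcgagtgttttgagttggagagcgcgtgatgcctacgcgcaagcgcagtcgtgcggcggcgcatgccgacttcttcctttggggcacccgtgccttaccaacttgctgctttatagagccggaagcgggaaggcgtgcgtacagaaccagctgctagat

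All capitals in these windows are CCAAT or its reverse complement ATTGG, with 3 matches for Brip1, 2 for Blm and 1 for Atm. The next windows are of the 3 genes that fell with the smallest p among those holding E2F letters, and they were chosen after the matches were seen.
Fancb, chrX:164980342-164980641, plus strand: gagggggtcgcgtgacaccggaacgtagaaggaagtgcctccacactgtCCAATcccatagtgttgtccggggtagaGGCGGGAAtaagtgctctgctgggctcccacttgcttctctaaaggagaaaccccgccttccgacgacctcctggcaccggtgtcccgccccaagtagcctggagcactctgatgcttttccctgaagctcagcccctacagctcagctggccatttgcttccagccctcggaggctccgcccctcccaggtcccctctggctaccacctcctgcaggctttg
Polq, chr16:37011536-37011835, plus strand: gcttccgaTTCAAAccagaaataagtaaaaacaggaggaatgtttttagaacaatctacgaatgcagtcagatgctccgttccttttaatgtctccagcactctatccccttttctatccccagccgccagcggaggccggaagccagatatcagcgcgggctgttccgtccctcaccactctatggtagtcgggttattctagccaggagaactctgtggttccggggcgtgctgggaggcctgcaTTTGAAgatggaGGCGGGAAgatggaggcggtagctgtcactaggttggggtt
Brca2, chr5:150522371-150522670, plus strand: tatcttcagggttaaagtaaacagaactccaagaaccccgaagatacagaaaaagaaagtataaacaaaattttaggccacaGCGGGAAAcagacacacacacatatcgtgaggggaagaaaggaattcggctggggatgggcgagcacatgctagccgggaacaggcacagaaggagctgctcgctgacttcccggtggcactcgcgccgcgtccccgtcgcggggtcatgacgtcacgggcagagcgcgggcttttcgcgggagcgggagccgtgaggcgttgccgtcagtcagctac

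Fancb and Polq hold GGCGGGAA, the reverse complement of TTCCCGCC, at bases 78 and 260 of their windows. Brca2 holds GCGGGAAA, the reverse complement of TTTCCCGC, at base 83. Fancb also holds CCAAT, and Polq holds the CHR letters at bases 9 and 248.

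Among homologous recombination genes 10 of 13 fell, including Brca1 and Brca2. Brip1, a helicase that binds BRCA1 and also acts in crosslink repair, had 8.09, 8.18 and 8.01 in the EVI1 arrays, against 9.99, 9.82 and 9.83 in the EGFP arrays. The groups stood far apart beside the small spread within each, a 3.44-fold fall (limma adjusted p = 5.6e-05). Brca2, a tumour suppressor required for recombination at resected DNA, had 7.83, 7.89 and 7.54 in the EVI1 arrays, against 9.44, 8.90 and 9.25 in the EGFP arrays (-1.44 ± 0.16, limma adjusted p = 0.000744). Rad54l, a DNA motor that acts in strand invasion, had 8.17, 8.51 and 7.93 in the EVI1 arrays, against 9.58, 9.99 and 9.63 in the EGFP arrays (-1.53 ± 0.17, limma adjusted p = 0.000786). Neither gene's groups overlapped.

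The other recombination genes ran from a clear fall to no call. Brca1, the ubiquitin ligase that steers breaks into recombination, fell by 1.12 ± 0.13, while Bard1, its partner, fell by 0.56 ± 0.15. Palb2, which joins BRCA1 to BRCA2, fell by 0.88 ± 0.14. Among related genes that act together in recombination, Rad51b fell by 1.65 ± 0.25 and Rad51c by 0.66 ± 0.12, but Rad51d (-0.10, 95% interval -0.69 to 0.49) and Xrcc3 (-0.19, -0.56 to 0.19) were not called. Rad51ap1, an accessory gene of recombination, fell by 1.47 ± 0.23, and Rad54b, a relative of Rad54l, by 1.02 ± 0.16. Rad52, an annealing protein that mouse cells can largely do without, differed by -0.25 and was not called (interval -0.54 to 0.04). The call of Bard1 was lost without EVI1 replicate 2 or 3, EGFP replicate 1 or EGFP replicate 3 (limma adjusted p between 0.0527 and 0.126), and with array weights (0.0528).

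Of the nuclease and helicase genes that prepare broken ends 5 of 6 fell, and Wrn was not called. Exo1, the exonuclease of long-range resection, had 7.08, 7.38 and 7.02 in the EVI1 arrays, against 9.05, 8.87 and 9.11 in the EGFP arrays, a 3.60-fold fall (limma adjusted p = 0.000131). Blm, the helicase mutated in Bloom syndrome, had 8.94, 8.82 and 8.34 in the EVI1 arrays, against 10.69, 10.58 and 10.60 in the EGFP arrays, a 3.78-fold fall (limma adjusted p = 0.000239). Every EVI1 value of both genes was below every EGFP value by more than the spread within either group.

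The 3 subunit genes of the MRN complex, which binds ends first and activates ATM, fell too. Of these, Rad50 had 10.34, 10.24 and 10.18 in the EVI1 arrays, against 11.04, 10.68 and 11.16 in the EGFP arrays (-0.71 ± 0.14, limma adjusted p = 0.0099). Nbn fell by 0.64 ± 0.17 and Mre11a, the nuclease subunit, by 0.49 ± 0.12. Nbn has 2 probe sets, and with their mean its difference was -0.29 and not called (limma adjusted p = 0.124). A further quantile normalization lost its call as well (0.0532). Its call was also lost without any single array other than EGFP replicate 2 (0.0529 to 0.124), and that of Mre11a without EVI1 replicate 1, EVI1 replicate 3 or EGFP replicate 3 (0.0623 to 0.0819). Without each of these 3 arrays, 3 of the 6 genes fell. Wrn, the helicase gene of Werner syndrome, had 10.45, 10.37 and 10.42 in the EVI1 arrays, against 10.53, 10.09 and 10.33 in the EGFP arrays, and the groups overlapped (0.10, interval -0.20 to 0.40).

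Of the Fanconi genes 5 of 8 fell, and 3 genes of the core complex were not called. Fancd2, whose ubiquitinated product marks crosslinked DNA, had 6.67, 6.81 and 6.40 in the EVI1 arrays, against 8.22, 7.91 and 8.09 in the EGFP arrays (-1.44 ± 0.14, limma adjusted p = 0.000413). Fancb, an X-linked gene of the core ligase complex, had 6.07, 6.65 and 6.29 in the EVI1 arrays, against 7.96, 7.83 and 7.82 in the EGFP arrays (-1.53 ± 0.15, limma adjusted p = 0.00047). Fancm, the motor that anchors the core complex to DNA, had 7.36, 7.33 and 6.94 in the EVI1 arrays, against 8.82, 8.28 and 8.71 in the EGFP arrays (-1.39 ± 0.18, limma adjusted p = 0.00127). None of these 3 genes had overlapping groups. Fanca, a core complex gene, fell by 0.79 ± 0.14, and Usp1, which removes ubiquitin from FANCD2, fell by 0.92 ± 0.22. The call of Usp1 was lost without EVI1 replicate 3, EGFP replicate 1 or EGFP replicate 3 (limma adjusted p between 0.0679 and 0.0842). Of the other core complex genes, Fancc (0.05, interval -0.32 to 0.41), Fancg (0.07, -0.23 to 0.36) and Fancl, the ligase subunit (0.08, -0.39 to 0.55), were not called, and their groups overlapped.

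Some of these values are near the lower end of the scale. The 95th percentile of 1027 olfactory receptor genes, a family not thought to be used in blood cells, was 6.99 in the EVI1 arrays and 6.95 in the EGFP arrays. The EVI1 means of Fancb, Fancd2, Fancc, Palb2, Rad51b and Ung lay under it, and so did the EGFP mean of Fancc. The size of the falls of Fancb, Fancd2, Palb2 and Rad51b is uncertain for that reason, and Fancc was dim in both groups. When genes under the median level were left out, Fancb, Fancd2 and Fancc were not tested. The other 3 Fanconi genes that fell, Fanca, Fancm and Usp1, were still called lower.

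Mismatch repair genes did not pass the test. Msh6, which with its partner recognises single mismatches, had 10.36, 10.62 and 10.08 in the EVI1 arrays, against 10.39, 10.20 and 10.26 in the EGFP arrays (0.07, interval -0.27 to 0.41). Msh3, which recognises small loops, had 8.73, 8.79 and 8.79 in the EVI1 arrays, against 8.88, 8.63 and 8.75 in the EGFP arrays (0.02, -0.23 to 0.27). The groups of both overlapped, and neither interval reaches a 2-fold change, though the intervals measure only the spread between these arrays. Pms2, an endonuclease subunit that acts after recognition, had 8.62, 8.56 and 8.29 in the EVI1 arrays, against 8.90, 8.91 and 8.79 in the EGFP arrays. The groups of Pms2 did not overlap, and its difference of -0.38 ± 0.12 was not called (limma adjusted p = 0.0687), but the block took it past the threshold (0.0414).

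In base excision and single-strand break repair 5 of 8 genes fell, and they were a glycosylase, the endonuclease of the pathway, both break sensors and a ligase. Parp1, the sensor of single-strand breaks, had 9.12, 9.44 and 8.98 in the EVI1 arrays, against 10.24, 10.88 and 10.57 in the EGFP arrays, a 2.61-fold fall (limma adjusted p = 0.00171). Neil3, a glycosylase made in dividing cells, had 8.63, 8.77 and 8.28 in the EVI1 arrays, against 10.07, 9.53 and 9.68 in the EGFP arrays (-1.20 ± 0.18, limma adjusted p = 0.00268). Lig3, the ligase that seals these breaks, had 8.34, 8.49 and 8.21 in the EVI1 arrays, against 8.99, 9.33 and 9.08 in the EGFP arrays (-0.79 ± 0.13, limma adjusted p = 0.00436). None of these groups overlapped. Apex1, the endonuclease that cuts at sites without a base, fell by 0.95 ± 0.21, and Parp2, a second sensor, by 0.45 ± 0.11.

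The remaining base excision genes were not called. Xrcc1, the scaffold that holds LIG3, had 8.15, 8.23 and 8.24 in the EVI1 arrays, against 8.43, 8.71 and 8.49 in the EGFP arrays, without overlap (-0.34 ± 0.11, limma adjusted p = 0.0809). The glycosylases Ung, which removes uracil (-0.15, interval -0.39 to 0.09), and Ogg1, which removes oxidised guanine (-0.17, -0.49 to 0.15), had overlapping groups. The call of Apex1 was lost without EVI1 replicate 1 or 3 (limma adjusted p = 0.0529 and 0.0524), and that of Parp2 without any single array other than EGFP replicate 2 (0.0628 to 0.085). Without EVI1 replicate 1, and likewise without EVI1 replicate 3, 3 of the 8 genes fell.

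Of the end joining genes 3 of 7 fell, and 3 of the others had positive differences that were not called. Polq, the polymerase of the error-prone pathway that joins resected ends, had 7.62, 7.73 and 7.40 in the EVI1 arrays, against 9.10, 8.71 and 8.97 in the EGFP arrays, a 2.54-fold fall (limma adjusted p = 0.000553). Prkdc, the catalytic subunit of the DNA-dependent kinase of classical end joining, had 8.73, 8.60 and 8.48 in the EVI1 arrays, against 9.47, 9.17 and 9.17 in the EGFP arrays (-0.67 ± 0.13, limma adjusted p = 0.00789). Xrcc6, which encodes the Ku70 subunit of the ring that binds ends, had 8.32, 8.42 and 8.23 in the EVI1 arrays, against 8.87, 9.38 and 8.92 in the EGFP arrays (-0.73 ± 0.15, limma adjusted p = 0.012). The fall of Xrcc6 was lost without EVI1 replicate 3 (0.0581).

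The transcript of the other Ku subunit differed the other way. Xrcc5, which encodes Ku80, had 10.07, 9.95 and 9.66 in the EVI1 arrays, against 9.66, 9.14 and 9.32 in the EGFP arrays. The lowest EVI1 and the highest EGFP value were equal at this rounding, and its difference of 0.52 ± 0.16 was not called (limma adjusted p = 0.0637). It passed with the replicate block (0.0273) and without EGFP replicate 1 (0.66, 0.0276). The difference of Xrcc5 exceeded that of Xrcc6 by 1.25, and the Xrcc5 minus Xrcc6 contrast within arrays did not overlap between the groups. This pair was singled out after its values were seen, and the contrast was not tested. Such contrasts also did not overlap for Brca2 and Palb2, Lig3 and Xrcc1, Xrcc4 and Lig4, Atm and Atr, and Parp1 and Parp2. They overlapped for Brca1 and Bard1, Atr and Atrip, Rad50 and Mre11a, Rad50 and Nbn, and Chek1 and Chek2. Trp53bp1, whose product 53BP1 shields ends from resection, had 8.64, 8.42 and 8.59 in the EVI1 arrays, against 8.22, 8.36 and 8.30 in the EGFP arrays, without overlap (0.26 ± 0.11, limma adjusted p = 0.158). The final ligase complex was not called either, with Xrcc4 at 0.53 (interval -0.03 to 1.09) and Lig4 at -0.11 (-0.49 to 0.26). EGFP replicate 2 had the lowest value of both these genes, and the groups of both overlapped.

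**Figure D3:**
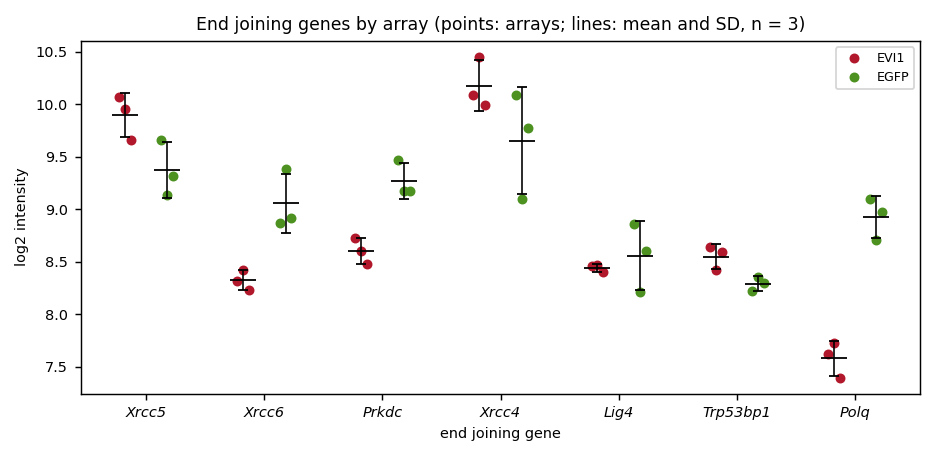
Points are the log2 intensities of single arrays for the 7 end joining genes, EVI1 in red left of EGFP in green, with the mean and SD (n = 3). Xrcc6, Prkdc and Polq are lower in every EVI1 array than in any EGFP array, while Xrcc5 and Trp53bp1 lie the other way without a call and the groups of Xrcc4 and Lig4 overlap.

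Both kinase arms of the checkpoint fell, with their adaptors. Atm, the kinase that answers double-strand breaks, had 8.34, 8.09 and 8.16 in the EVI1 arrays, against 9.45, 9.25 and 9.35 in the EGFP arrays, a 2.22-fold fall (limma adjusted p = 0.000438). Topbp1, which activates ATR, had 9.22, 9.42 and 9.16 in the EVI1 arrays, against 10.65, 10.41 and 10.85 in the EGFP arrays (-1.37 ± 0.14, limma adjusted p = 0.000499). H2afx, the histone variant that ATM phosphorylates around breaks, had 8.31, 8.15 and 7.79 in the EVI1 arrays, against 9.42, 9.34 and 9.38 in the EGFP arrays (-1.29 ± 0.14, limma adjusted p = 0.000706). The groups of these genes were apart by more than the spread within either.

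Downstream, Chek1, the kinase that ATR activates, fell by 1.71 ± 0.28, with 7.90, 8.21 and 7.67 in the EVI1 arrays, against 9.87, 8.96 and 10.09 in the EGFP arrays. EGFP replicate 2 was the low one of its group. Chek2, the kinase that ATM activates, fell by 0.86 ± 0.22, with 8.28, 8.60 and 8.20 in the EVI1 arrays, against 8.94, 9.75 and 8.97 in the EGFP arrays, where EGFP replicate 2 was instead the high one. Atr itself fell by 0.67 ± 0.11, its partner Atrip by 0.57 ± 0.14, and Mdc1, which binds phosphorylated H2AX, by 0.73 ± 0.14. The call of Chek2 was lost without EVI1 replicate 1 or 3 (limma adjusted p = 0.0919 and 0.127), and that of Atrip without EVI1 replicate 2, EVI1 replicate 3, EGFP replicate 1 or EGFP replicate 3 (0.0704 to 0.0863).

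Polk, a translesion polymerase that copies past bulky adducts, had 9.47, 9.30 and 8.99 in the EVI1 arrays, against 9.54, 9.18 and 9.28 in the EGFP arrays. The groups overlapped, and its difference was -0.08 (interval -0.43 to 0.28).

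The same pathways hold genes outside the 54. Of 103 other repair genes measured 37 fell (35.9%, beside 9.18% of all genes tested), 3 rose (2.91%, beside 9.06%) and 63 were not called. Their median difference was -0.26. The share in each pathway was 13 of 25 for recombination and resection, 9 of 16 for the checkpoint, 3 of 11 for the Fanconi pathway, 1 of 2 for mismatch repair (Pms1), 5 of 16 for base excision, 3 of 7 for end joining and 3 of 9 for translesion synthesis. Those with the smallest p were the recombination helicase gene Mcm8 (-1.65 ± 0.12), Rad18, the ubiquitin ligase that starts translesion synthesis (-1.37 ± 0.12), and the replication ligase gene Lig1 (-1.23 ± 0.12). Of nucleotide excision repair, which removes ultraviolet lesions, none of 17 genes fell and 1, the damage sensor gene Ddb2, rose (0.74 ± 0.15). The other rises were of Polb, the gap-filling polymerase of base excision (0.86 ± 0.13), and Mpg, a glycosylase of alkylated bases (0.64 ± 0.16). By an unadjusted limma p under 0.05, 3 of the 17 nucleotide excision genes were lower, where 14.4% of all genes were, and with a replicate block 1, Ddb1, fell. The block gave 39 lower and 4 higher among the 103 genes. The call of Mpg was lost without any single array other than EGFP replicate 2 (limma adjusted p between 0.0691 and 0.103), and that of Pms1 without EVI1 replicate 3, EGFP replicate 1 or EGFP replicate 3 (0.0524 to 0.0669). Swi5, Top3a, Rfwd3, Faap24, Aplf, Tdp2, Rnf168, Rad17, Timeless, Polh and Rev1 also lost their lower call in 1 or more alternative fits. That of Tdp2 was lost with the replicate block among others (limma adjusted p = 0.0506), so the pathway counts depend on the fit.

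**Figure D4:**
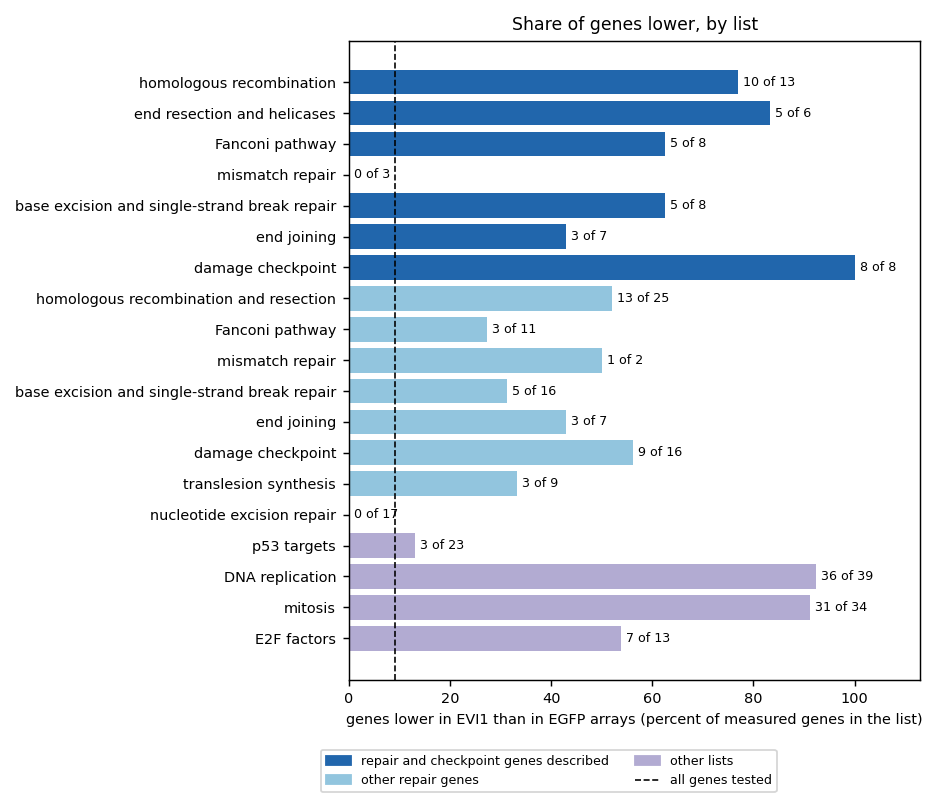
Bars give the percent of measured genes in each list that fell in EVI1 relative to EGFP arrays, with counts beside them, and the dashed line is the 9.18% of all genes tested. The 3 mismatch repair and 17 nucleotide excision repair genes have no bar, and the replication and mitosis lists stand near the top of the scale with 36 of 39 and 31 of 34 genes.

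The measured p53 targets, genes that respond to an activated checkpoint, did not share a direction. Of 23 measured p53 targets 3 rose, 3 fell and 17 were not called, with a median of 0.14. Among all genes tested 9.06% rose and 9.18% fell, and whether the p53 targets differ from these shares was not tested. The listed targets Cdkn1a, found only on probe sets with several symbols, and Bax, not measured here, are not counted. With a replicate block 4 of the 23 rose and 3 fell, the added gene being Btg2, an antiproliferative gene (0.87, 0.0172). Fas, a death receptor (2.28 ± 0.19), Trp53inp1, a stress protein that promotes p53 activity (1.17 ± 0.15) and Perp, a membrane protein (0.63 ± 0.13), rose, and Pidd1, an adaptor of caspase 2 activation (-0.68 ± 0.10), Gtse1, a negative regulator of p53 (-0.64 ± 0.12) and Aen, a nuclease (-0.47 ± 0.13), fell. The call of Aen was lost without any single array other than EGFP replicate 1 (0.0566 to 0.128), and that of Perp without EVI1 replicate 2 (0.0563). Mdm2, the p53 antagonist, differed by 0.14 and was not called.

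The fall of the repair genes stood beside a fall of cell cycle genes on the same arrays, where 9.18% of all genes tested fell. The mean log2 intensity of 39 DNA replication genes was 8.72, 8.93 and 8.66 in the EVI1 arrays, against 9.89, 10.06 and 10.01 in the EGFP arrays, with 36 lower and a median difference of -1.36. That of 34 mitosis genes was 9.32, 9.60 and 9.17 in the EVI1 arrays, against 10.37, 10.47 and 10.38 in the EGFP arrays, with 31 lower (33 with a replicate block), 1 higher and a median of -1.10. Among 13 E2F factors, partners and pocket proteins, which control S phase genes, 7 fell and 1 rose. Those with the smallest p were the partner Tfdp1 (-1.68 ± 0.10), E2f8 (-1.59 ± 0.12) and E2f7 (-1.03 ± 0.12), both repressors, and Tfdp2 rose (0.55 ± 0.13). The call of Tfdp2 was lost without EVI1 replicate 1, EVI1 replicate 2 or EGFP replicate 1 (limma adjusted p between 0.0596 and 0.0746). Lower calls of E2f3, E2f4 and Rbl1 were lost in 1 or more alternative fits. So were those of the replication genes Cdt1, Gins2, Gins4, Pcna and Prim2, and of the mitosis genes Ccnb2, Nek2, Kif2c, Cenpa and Cks2. The 1 higher mitosis gene, Pttg1, also lost its call in some fits, so these counts depend on the fit. E2f1 differed by -0.26 and was not called (limma adjusted p = 0.199). The part of cell cycle state in the fall of the repair genes was not tested, and in these bulk samples fewer cycling cells and less of these RNAs per cell cannot be told apart.

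Markers of blood cell types differed between the groups too, where 9.18% of all genes tested were lower and 9.06% higher. Of 8 measured stem and progenitor markers 6 were lower, among them Cd34 (-2.45), Myb (-1.61), Flt3 (-1.52) and Kit (-0.61), with array means of 8.92 to 9.01 in the EVI1 arrays, against 9.82 to 10.01 in the EGFP arrays. Of 8 mast cell and basophil markers 7 were lower (8.80 to 9.03 in the EVI1 and 10.10 to 10.68 in the EGFP arrays), of 12 neutrophil markers 6 were lower and 2 higher (8.67 to 9.29 in the EVI1 and 9.70 to 10.31 in the EGFP arrays). Of 9 monocyte and macrophage markers 5 were lower and 3 higher (9.02 to 9.60 in the EVI1 and 9.68 to 10.14 in the EGFP arrays). Erythroid markers lay at 8.61 to 8.73 in the EVI1 arrays, against 8.35 to 8.39 in the EGFP arrays, with 2 of 6 higher. Of 5 megakaryocyte markers 1 was lower and 2 were higher (9.24 to 9.39 in the EVI1 and 9.12 to 9.43 in the EGFP arrays). Of 8 stromal and endothelial markers 1 was lower and 2 were higher (7.53 to 7.79 in the EVI1 and 7.17 to 7.28 in the EGFP arrays). Of 10 T and B cell markers, the array means were 6.65 to 6.76 in the EVI1 and 6.52 to 6.74 in the EGFP arrays, and 7 of 10 lay under the olfactory level in the EVI1 and 6 of 10 in the EGFP arrays. Cd79b, a subunit of the B cell receptor, was well above that level, with 9.41, 10.19 and 10.02 in the EVI1 arrays, against 8.46, 8.75 and 8.75 in the EGFP arrays, and rose (1.22 ± 0.20, limma adjusted p = 0.00441). Cd3g, a T cell receptor subunit, was lower (-1.28), with its EVI1 mean under that level. With a replicate block 8 neutrophil, 6 monocyte and macrophage, and 2 stromal and endothelial markers were lower, and no other marker count changed. The call of Kit was lost without EVI1 replicate 1, EVI1 replicate 2 or EGFP replicate 3 (limma adjusted p between 0.0599 and 0.0637). Other lower calls lost in 1 or more alternative fits were those of Meis1, Cd48, Cd177, Csf1r, Cd14, Fcer1a, Prss34, Cd3g and Pdgfrb. Higher calls lost likewise were those of Mrc1, Epor and Vwf. No marker is listed at 0 on this scale, and the part of cell type makeup in the fall of the repair genes was not tested.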

How the data were processed

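Total RNA of 6 samples was measured on single-colour arrays, and each deposited value is the log2 intensity of a probe set on an array. The authors made them by RMA, per the submitters' processing notes; its version is not given in the sources used here. Array medians ranged over 7.24 to 7.31, no detection calls were used, and the number of arrays limits the precision.

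No rescaling was applied. The platform annotation gave 1 symbol to 21640 of 34760 probe sets, several to 1321 and none to 11799, and each gene took the probe set with the highest mean, which gave 19937 genes. Groups came from the sample titles. The groups were compared with lmFit and eBayes of limma 3.58.1 (R 4.3.3; two-sided), with Benjamini-Hochberg adjustment over all genes and 95% intervals from the same fit. The fit was run on simulated data with 200 changed genes and noise independent between arrays. In the real data 3638 genes changed and same-numbered arrays deviated together, so that run does not check the calls given here. SD is over the 3 arrays of a group. The members, lists and tests were chosen with earlier results of these data known.

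Values in every array are given for up to 3 genes with the smallest p in each pathway, for genes not called whose groups did not overlap, and for Chek1, Chek2 and Wrn, added after their values were seen; outside the 54 genes, those with the smallest p of each direction are named, with Pms1, Ddb1, Btg2, Mdm2, E2f1, Kit, Cd79b and Cd3g added likewise. Same-numbered EVI1 and EGFP arrays deviated together from their group means across genes (r = 0.491, 0.269 and 0.197 for replicates 1, 2 and 3). The numbers were taken to pair the arrays, from the data and not the labels. The main fit, which gave the calls, SE and intervals above, left this pairing out, and the replicate block includes it. With the block 37 of the 54 genes fell and 1 rose, instead of 36 and 0. Alternatives were a replicate block, the mean of a gene's probe sets, filters on dim genes, 2 further normalizations, trended robust eBayes, array weights and leaving out each array. Sequences are from RefSeq (GRCm38.p6).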

Additional observations from a re-analysis of the deposited data

How the results depend on the processing

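Of the 36 repair genes that fell, 27 were called lower in each of the 14 alternatives that kept them. Their count was 32 to 37 with all 6 arrays (48 of the 54 genes remained after leaving out genes under the median level) and 27 to 36 when single arrays were left out. One gene, Xrcc5, was higher with a replicate block, with array weights and without genes under the median level, so that count was 1 instead of 0, and 0 to 1 when single arrays were left out. With a replicate block 1 mismatch repair gene was lower instead of none, and the block changed no other member's call than those of Pms2 and Xrcc5. Without genes under the median level 3 Fanconi genes were lower, because Fancb and Fancd2 were then not tested.

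When single arrays were left out, 2289 (without EVI1 replicate 3) to 4098 genes changed, against 3638 with all arrays (with a replicate block 2189 fell and 2172 rose), the lower genes numbered 3 to 5 in resection and in base excision, the medians were -0.06 to 0.08 for mismatch repair and -0.29 to 0.04 for end joining, and the Mecom difference was -0.87 to -0.30. The mismatch repair median was -0.06 without EVI1 replicate 2 and the end joining median 0.04 without EGFP replicate 1, each with its sign turned. The causes were not tested. EGFP replicate 2 had the lowest array weight (0.452), and without it 36 repair genes were lower.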
